A study of Mus musculus with 8 samples.

Results

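The nucleolar ribosome biogenesis factors were followed in AML410, a murine acute myeloid leukaemia, while the transcription factor PU.1 (gene Spi1) was switched back on. The group is a list of 50 genes for polymerase I subunits, small nucleolar ribonucleoprotein (snoRNP) proteins and pre-rRNA processing and ribosome assembly factors. The genes were listed by function, with earlier results of these data known. All 50 were found among the 12830 genes of the deposited tables and all passed the filter on low counts. According to the series title, AML410 has a monosomal karyotype and is p53-/-, and all groups share a hairpin against PU.1 (shPU.1) that is linked to GFP and is shut off by Dox (doxycycline). GFP+ cells were sorted from the bone marrow of leukaemic C57BL/6 recipients. The 4 groups of 2 libraries were untreated (labelled GFPhigh), 2 days of Dox (GFPhigh-mid), 4 days (GFPmid) and 6 days (GFPlow). Time on Dox and the GFP gate changed together and cannot be told apart, and no group without the hairpin or with Dox alone was analysed here. Animal ages were not given in the sources used here, and the series describes a single leukaemia.

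Ribosomes are assembled in the nucleolus, where RNA polymerase I copies the ribosomal DNA into a long precursor. Box C/D snoRNPs guide methylation and box H/ACA snoRNPs guide pseudouridylation of that precursor, and the small subunit processome and the large subunit assembly factors cleave, fold and package it with ribosomal proteins. In blood cells and leukaemias, genes of this machinery are known targets of Myc and are highly expressed in proliferating progenitors, and their expression falls as granulocytes mature.

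Library totals ranged from 9262047 to 11213292 counts. Spi1 read 8.34 and 12.9 CPM (counts relative to library size, corrected with the TMM method) in the untreated libraries, 14.8 and 15.6 at day 2, 94.0 and 103 at day 4 and 217 and 229 at day 6, so the libraries ordered as their labels state. Trp53 had counts in all 8 libraries (lowest 41.1 CPM), and whether these reads lie outside the deleted part of the gene was not analysed here. The labels call the replicates technical and the series design speaks of duplicate mice, so the spread that a p-value sets a difference against is the one between these libraries, pooled over the 4 groups and across genes, and it may be technical. In day 2 replicate 1 a single gene held 13.3% of all counts, against 0.957% to 1.73% elsewhere. The summed level of 12 mature neutrophil markers was 2715 to 4015 CPM in untreated libraries and 59141 to 72369 CPM at day 6, and that of 10 myeloid progenitor markers was 15046 to 16866 and then 6458 to 6549 CPM. The progenitor list went both ways. Elane (7471 to 8562 and then 2751 to 2829 CPM), Ctsg (5038 to 5419 and then 527 to 562) and Kit (125 to 132 and then 34.9 to 38.3) had lower values at day 6. Ptprc (26.6 to 28.01 and then 680.0 to 682), Cd33 (1.93 to 2.47 and then 78.3 to 94.3), Ms4a3 (381 to 396 and then 482 to 506) and Spi1 had higher ones. For 11 of 12 monocyte and macrophage markers found in the tables the sums were 5051 to 5553 and then 10890 to 11324 CPM, with Ms4a7 at 0 in the untreated libraries. Most of that sum was Ly6c2 (4564 to 4978 and then 6485 to 6699 CPM), and other markers of the list rose by far more. Csf1r went from 31.8 to 39.7 CPM untreated to 917 to 920 at day 4 and 949 to 1008 at day 6. Ccr2 went from 36.7 to 52.5 to 1075 to 1197 and 1174 to 1283. No marker of this list had lower values at day 6. The sum of 11 B cell markers was 324 to 487 and then 568 to 569 CPM. The erythroid sum (7 of 12 markers found) lay between 69.8 and 153 CPM over all libraries, and most of it was Tfrc, a gene of dividing cells too (139 to 141 CPM untreated and 70.7 to 70.9 at day 6). The haemoglobin genes were low throughout and had higher values at day 6, with Hba-a2 at 2.35 to 5.53 CPM untreated and 12.0 to 25.8 at day 6, and Hbb-bs at 1.26 to 2.64 and 10.8 to 17.9. The T and NK cell sum (3 of 11 found, with Cd3e, Cd4 and Cd8a not in the tables) lay between 94.3 and 216 CPM. Nearly all of it was Nkg7 (93.2 to 215 CPM). Lck and Klrb1c reached at most 2.31 and 0.807 CPM in any library. The part that these shifts in maturation and cell makeup have in the results below was not tested.

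At day 6 of Dox, 48 of the 50 nucleolar factors were lower than in untreated cells and none was higher, with Fbl and Pes1 as the 2 that did not pass the test (edgeR quasi-likelihood test, Benjamini-Hochberg adjusted p under 0.05). Over all 12330 genes tested, 31.6% were lower and 32% were higher at day 6. The members' median log2 fold change was -0.81, with a range from -2.20 (Gnl3) to -0.20 (Pes1), against a median of -0.04 over all genes. At day 6 the members stood at a median of 57.0% of their untreated level. The log2 fold change was below -1, a fall of over 2-fold, in 22 called members, as it was in 12% of all genes. Every day 6 library was below every untreated library in all 50 members, which held for 42.4% of all genes. In bulk samples, fewer cells of a type and less RNA per cell cannot be told apart.

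**Figure D1:**
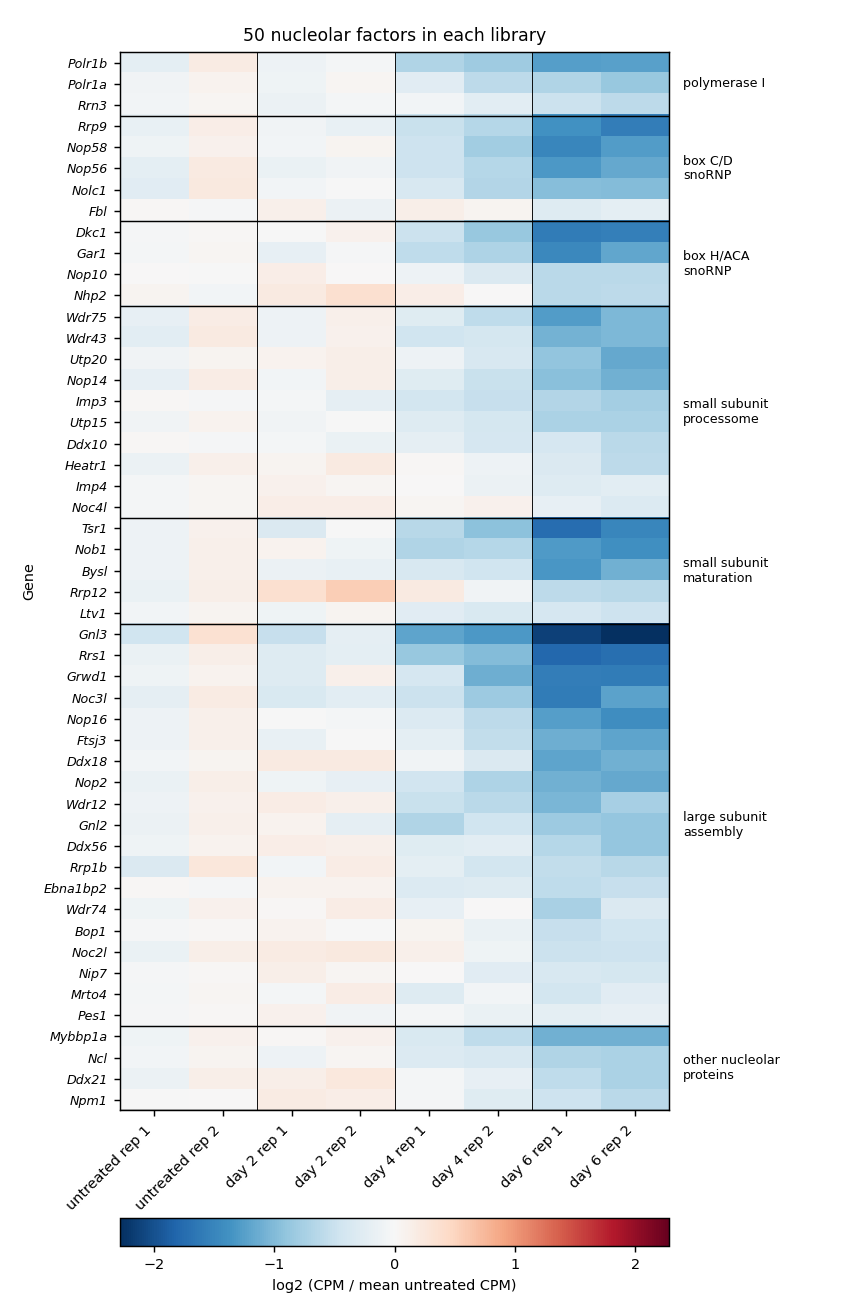
Each row is a nucleolar factor and each column a library. Colour gives the log2 ratio of the CPM to the mean of the untreated libraries, blue for lower, and rows are ordered by role and by the day 6 change. The mean of the day 6 columns is the lowest for every row, down to a log2 fold change of -2.20 for Gnl3.

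The summed CPM of the members was 3906 and 4441 in the untreated libraries, 4108 and 4320 at day 2, 3457 and 3115 at day 4 and 2394 and 2344 at day 6. The untreated and day 2 libraries overlapped, the day 4 libraries lay below both, and the day 6 libraries lay below all others. As unscaled counts, the members made up 0.447% and 0.524% of the untreated libraries and 0.209% and 0.199% of the day 6 libraries. With libraries scaled by their total counts in place of TMM, the median of all genes shifted to -0.47 at day 6, and all-gene calls went from 3897 lower and 3942 higher to 6647 lower and 2078 higher. The members' median was then -1.25 and all 50 were called lower. All 50 had negative fold changes with TMM already. A scaling that shifts fold changes downwards could not turn their direction, so it is no check of it.

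With all libraries in the fit, the first calls among the members came at day 4. The lack of calls at day 2 does not show that no member had changed by then. At day 2, edgeR called none of the 50 members lower, where 1.95% of all genes were, and none higher, where 4.18% were. The members' median log2 fold change was 0.00 with a range of -0.35 to 0.48, and 3 members had an unadjusted p under 0.05 by edgeR, 2 by DESeq2, 3 by limma-voom and 6 by edgeR with scaling by total counts. The all-gene counts behind these shares depended on single libraries. Leaving out untreated replicate 1 or 2 turned the 240 lower genes into 587 or 84, leaving out day 2 replicate 1 or 2 into 134 or 92, and leaving out either day 6 library into 111 or 112. The 516 higher genes became 241 with untreated replicate 2, 305 with day 2 replicate 2, and 291 or 293 with either day 6 library left out. Without untreated replicate 1, Gnl3 and Rrs1 were called lower at day 2 (log2 fold changes of -0.69 and -0.39) and Nhp2 was called higher (0.36). At day 4, 31 members were lower than in untreated cells and none was higher, against 22% and 26.1% of all genes. The median was -0.36 at day 4, against -0.02 over all genes, and the members stood at a median of 77.6% of the untreated level. The count of 31 went to 16 without day 4 replicate 2 and to 18 without untreated replicate 2.

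Members fell in each of the later steps. From day 2 to day 4, 33 members fell and none rose, against 15.9% and 21.7% of all genes, with a median log2 fold change of -0.38. That count was 12 without day 4 replicate 2 and 16 without day 2 replicate 2, and it was 23 without day 2 replicate 1. Over all genes, the 1959 lower became 1173 without day 4 replicate 2. From day 4 to day 6, 39 members fell and none rose, against 14% and 15.9% of all genes, with a median of -0.50. The count was 19 with day 4 replicate 1 left out, and 23 or 22 with the first or the other day 6 library left out. In the same 3 fits the all-gene counts were 725, 878 and 710 lower (1728 with all libraries) and 1006, 1254 and 1016 higher (1961 with all libraries). With all libraries, edgeR called both steps in 29 members, only the earlier in 4, only the later in 10 and neither in 7. With DESeq2, 9 calls of the earlier step and 5 of the later were lost, so this sorting of members is not firm. The test of the difference between the steps called no member in either direction with edgeR, where it called 8.38% of all genes for a more negative and 3.15% for a more positive later step. In that test 6 members had an unadjusted p under 0.05, and the count of called members was also 0 under each alternative setting tried, DESeq2 and limma-voom included. Across all 4 groups together, 47 of the 50 members differed, as did 65.1% of all genes.

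**Figure D2:**
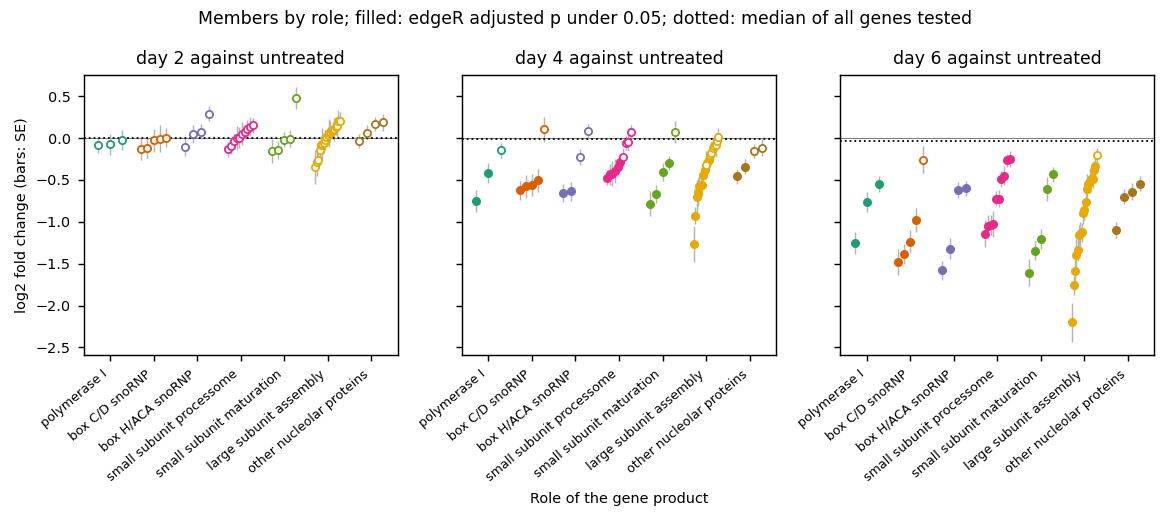
Each point is a nucleolar factor, placed by its role, with its log2 fold change against untreated. Bars are standard errors worked back from the edgeR test statistic. Filled points passed the edgeR test and the dotted line is the median of all genes tested. No point is filled at day 2, 31 are filled at day 4 and 48 at day 6, all below 0.

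Promoter sequences were compared because the members fell together. RefSeq promoters on GRCm38.p6 (250 bases before to 50 after the start) were found for 44 of the 50 members, in 48 entries. The canonical E-box CACGTG, the core that Myc and Max bind, was in a promoter of 10 of the 44 (22.7%), against 11.8% of the 9884 genes of the tables with an entry. The ETS family motif CCGGAAG was in 15 (34.1%) against 20.6%, and GAGGAAG, the core of PU.1 sites, in 10 (22.7%) against 16.4%. The TATA box TATAAA was in 2 (4.55%) against 8.80%. Per promoter, the E-box share was 20.8% in members, 9.92% in genes of the tables and 7.15% of all 32851 promoters, and the ETS share was 33.3%, 17.6% and 8.86%. The GAGGAAG share was 22.9%, 13.9% and 13.6%, and the TATAAA share 4.17%, 7.28% and 13.6%. Both strands were searched, and a CCGGAAG match can overlap a GAGGAAG match. The 5 windows below show the forms found, each the 100 bases before the annotated start, with matches to CACGTG or CCGGAAG on either strand in capitals. Nop2 (chr6:125131783-125131882, plus strand) holds both motifs, Rrn3 (chr16:13780599-13780698, plus strand) the E-box, and Gar1 (chr3:129831397-129831496, minus strand) and Grwd1 (chr7:45830790-45830889, minus strand) the ETS motif. Gnl3 (chr14:31019132-31019231, minus strand), the member with the most negative fold change, holds neither. Grwd1 also has an E-box after its start, outside the window shown. Rrn3 also has the ETS motif on the minus strand, at -5, where it runs past the end of the window, and at 19 after the start.
Nop2: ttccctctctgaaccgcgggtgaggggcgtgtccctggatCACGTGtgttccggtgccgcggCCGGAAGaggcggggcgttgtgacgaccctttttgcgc
Rrn3: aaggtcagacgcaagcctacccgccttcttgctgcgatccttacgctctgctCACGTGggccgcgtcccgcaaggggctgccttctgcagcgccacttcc
Gar1: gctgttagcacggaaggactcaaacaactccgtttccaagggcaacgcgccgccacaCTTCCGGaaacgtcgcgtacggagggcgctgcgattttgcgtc
Grwd1: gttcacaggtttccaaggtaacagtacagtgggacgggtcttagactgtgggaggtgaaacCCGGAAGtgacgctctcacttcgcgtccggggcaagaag
Gnl3: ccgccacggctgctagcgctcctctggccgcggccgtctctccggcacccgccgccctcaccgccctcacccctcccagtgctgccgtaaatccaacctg

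Members with and without these letters were lower at day 6. Of the 10 members with CACGTG (Grwd1, Imp4, Ltv1, Mybbp1a, Nop2, Pes1, Rrn3, Tsr1, Utp20 and Wdr43), 9 were lower at day 6, with a median log2 fold change of -1.04, and all 34 without it were lower, with a median of -0.83. The E-box lay before the start in 3 of the 10, Nop2 at -60, Imp4 at -121 and Rrn3 at -215 and -48. All 15 members with CCGGAAG were lower, with a median of -0.55, and 9 of the 10 with GAGGAAG were lower, with a median of -0.58. Both medians were less negative than that of all 50 members (-0.81). A match describes these letters in this window and no binding was measured.

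Polymerase I and its initiation factor make the precursor, and all 3 members were lower by day 6 (median log2 fold change -0.77). Polr1b, the second largest subunit of the enzyme (Entrez Gene 20017, chr2:129100970-129128060), read 45.6 and 60.7 CPM untreated, 49.0 and 51.8 at day 2, 32.9 and 30.2 at day 4 and 22.2 and 22.5 at day 6. Its day 4 libraries lay below all untreated and day 2 libraries, and its day 6 libraries lay below those of day 4. The log2 fold change was -0.75 (SE 0.13) at day 4 and -1.25 (SE 0.13) at day 6, with edgeR adjusted p of 0.000512 and 8.57e-06. Polr1a, the largest subunit (Entrez Gene 20019, chr6:71909053-71979435), read 79.5 and 88.4 CPM untreated, 78.6 and 86.5 at day 2, 70.4 and 55.2 at day 4 and 52.4 and 46.3 at day 6. The day 4 libraries lay below those of day 2 and above those of day 6, with log2 fold changes of -0.42 (SE 0.12) and -0.77 (SE 0.12) and edgeR adjusted p of 0.0117 and 0.000174. Rrn3, which brings the polymerase to the ribosomal DNA promoter (Entrez Gene 106298, chr16:13780699-13814841), read 58.7 and 63.1 CPM untreated, 55.2 and 59.2 at day 2, 58.2 and 51.7 at day 4 and 43.1 and 40.3 at day 6. For Rrn3 the day 2 range overlapped that of the untreated and that of the day 4 libraries, and the day 6 libraries lay below all of them. Its change was -0.15 at day 4, not called, and -0.55 (SE 0.09, adjusted p 0.000335 by edgeR) at day 6.

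Of the 5 box C/D snoRNP members, 4 were lower at day 4 and at day 6, with a median of -1.23 at day 6. Nop58 (Entrez Gene 55989, chr1:59684961-59711510) and Nop56, its partner in the core of the particle (Entrez Gene 67134, chr2:130274367-130279313), are the scaffold on which the methyltransferase sits. Nop58 read 133 and 152 CPM untreated, 137 and 149 at day 2, 103 and 82.5 at day 4 and 50.6 and 58.9 at day 6. Nop56 read 65.8 and 88.5, 69.4 and 73.0, 55.7 and 48.9 and 31.1 and 34.5 CPM in the same order. In both genes the untreated and day 2 libraries overlapped and each later group lay below the one before. The day 6 log2 fold change was -1.38 (SE 0.12, edgeR adjusted p 1.42e-06) for Nop58 and -1.23 (SE 0.14, edgeR adjusted p 1.09e-05) for Nop56. Rrp9, a protein of the particle that guides the early cleavages of the precursor (Entrez Gene 27966, chr9:106477309-106485415), had the most negative value of the 5, with 22.6 and 28.5 CPM untreated, 24.3 and 22.6 at day 2, 18.0 and 16.3 at day 4 and 9.80 and 8.54 at day 6. The day 4 and day 6 libraries of Rrp9 lay below its untreated and day 2 libraries, and the log2 fold change was -0.58 (SE 0.14) at day 4 and -1.48 (SE 0.15, adjusted p 5.71e-06 by edgeR) at day 6. Nolc1, a chaperone of snoRNPs, stood at 138 ± 32.3 CPM untreated and 69.8 ± 0.233 at day 6 (SD, n = 2), a log2 fold change of -0.98.

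Fbl, the methyltransferase of the box C/D particles (Entrez Gene 14113, chr7:28168893-28179269), was the exception. It read 10.05 and 9.64 CPM untreated, 10.7 and 8.98 at day 2, 10.8 and 10.3 at day 4 and 7.99 and 8.43 at day 6. The day 6 libraries were the lowest, and the log2 fold change of -0.26 (SE 0.16) had an edgeR adjusted p of 0.18. No other comparison of Fbl passed the test. Fbl was called lower at day 6 with scaling by total counts (-0.69) and in no other setting. On the scale of counts per length, the untreated level of Fbl was 8.49 RPKM beside 72.2 for Nop58 and 40.7 for Nop56. Of its coding transcript, 70.4% of the 50-base words also occur in transcripts of other genes, among them the pseudogenes Gm5812 and Gm6211, and reads of such words can be lost or shared in counting. Whether the low level and the small change come from that was not tested.

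**Figure D3:**
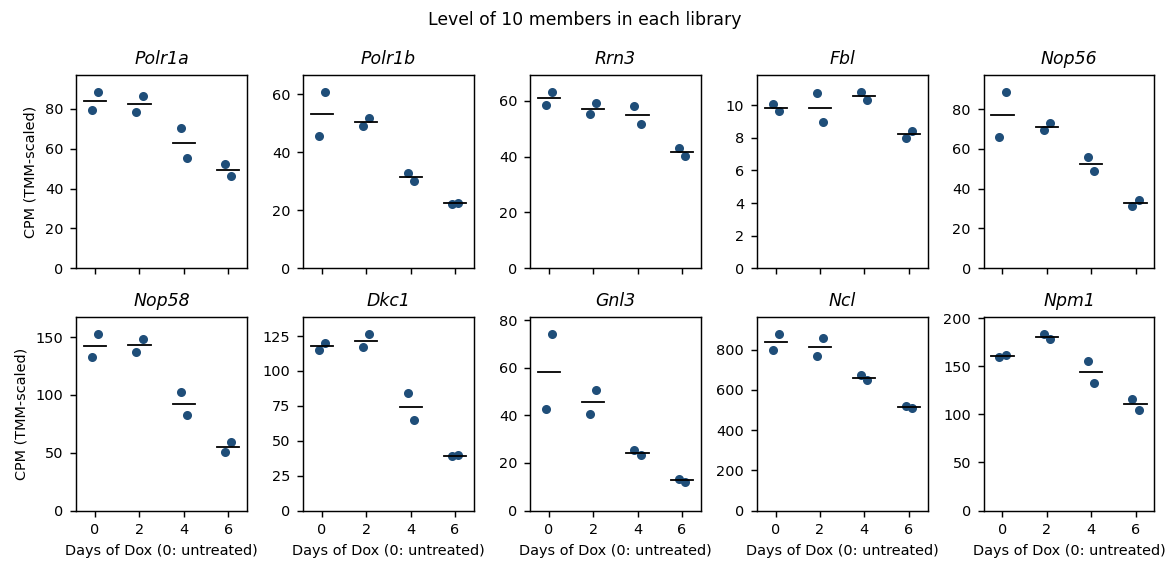
Each panel shows a nucleolar factor, with CPM on the vertical axis from 0 and days of Dox on the horizontal axis. Points are libraries and bars are the mean of the 2 libraries. Dkc1 goes from 115 and 120 CPM untreated to 39.1 and 39.7 at day 6, and Fbl stays between 7.99 and 10.8 CPM throughout.

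All 4 box H/ACA snoRNP members were lower at day 6. Dkc1, the pseudouridine synthase that is mutated in dyskeratosis congenita (Entrez Gene 245474, chrX:75095854-75109776), read 115 and 120 CPM untreated, 117 and 126 at day 2, 84.0 and 64.6 at day 4 and 39.1 and 39.7 at day 6. The untreated and day 2 libraries overlapped, and each later group lay below the one before. Dkc1 changed by -0.66 (SE 0.11) at day 4 and by -1.58 (SE 0.12) at day 6, with adjusted p of 0.000393 and 3.38e-07 from edgeR. Gar1, a core protein of the same particle (Entrez Gene 68147, chr3:129824912-129831407), read 35.2 and 37.3 CPM untreated, 31.8 and 35.5 at day 2, 24.3 and 22.2 at day 4 and 13.1 and 15.9 at day 6. Its untreated and day 2 libraries overlapped, and its day 6 libraries lay below all others. The changes were -0.64 (SE 0.12) and -1.32 (SE 0.12), the latter with an edgeR adjusted p of 3.01e-06. The other 2 core proteins were lower than untreated at day 6 and not called at day 4. Nhp2 was at 68.2 ± 4.20 CPM untreated, 72.2 ± 5.52 at day 4 and 44.9 ± 0.332 at day 6, and Nop10 at 64.9 ± 0.883, 55.5 ± 5.83 and 42.3 ± 0.215 (SD, n = 2). At day 6 their log2 fold changes were -0.60 and -0.62 (edgeR adjusted p 0.000179 and 0.000151). At day 4 Nop10 was near the threshold (-0.22, edgeR adjusted p 0.0622), and it was called lower there with DESeq2's size factors, with scaling by total counts and without day 4 replicate 1.

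The small subunit processome, the large particle that forms on the nascent precursor, had 10 of 10 members lower at day 6 (median -0.72) and 6 at day 4. Wdr75 (Entrez Gene 73674, chr1:45795153-45823638) and Wdr43 (Entrez Gene 72515, chr17:71616178-71659031) belong to the subcomplex that binds the precursor first and is tied to its transcription. Wdr75 read 36.0 and 46.0 CPM untreated, 37.7 and 44.2 at day 2, 33.8 and 27.3 at day 4 and 17.0 and 20.1 at day 6, and Wdr43 read 82.2 and 111, 89.6 and 104, 70.4 and 73.0 and 45.8 and 47.7. In both the day 2 libraries lay within the untreated range and the day 6 libraries lay below all others. The day 6 log2 fold changes were -1.14 (SE 0.16) and -1.05 (SE 0.13), with edgeR adjusted p of 6.87e-05 and 3.26e-05. Utp20 (-1.04) and Nop14 (-1.03), both structural components of the processome, changed by a like amount, followed by Utp15 and Imp3 (both -0.72). Smaller changes were those of the helicase Ddx10 (-0.49), of Heatr1 (-0.45), of Imp4 (-0.27) and of Noc4l (-0.25). The calls of Heatr1, Imp4 and Noc4l were lost under some alternative settings.

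The 5 factors of small subunit maturation were all lower at day 6, with a median of -1.20. Tsr1, which resembles a GTPase and sits on the late precursor particle (Entrez Gene 104662, chr11:74898080-74909340), read 30.1 and 34.8 CPM untreated, 25.9 and 32.0 at day 2, 20.8 and 16.9 at day 4 and 9.68 and 11.6 at day 6. Nob1, the nuclease that makes the final cut of the small subunit rRNA (Entrez Gene 67619, chr8:107412489-107425038), read 51.3 and 60.4, 59.2 and 52.1, 34.5 and 35.8 and 22.7 and 21.3 CPM. In both genes the day 4 libraries lay below the untreated and day 2 libraries and above those of day 6. The log2 fold change of Tsr1 was -0.78 (SE 0.15) at day 4 and -1.61 (SE 0.16, adjusted p 5.06e-06 by edgeR) at day 6, and that of Nob1 -0.67 (SE 0.11) and -1.34 (SE 0.11, edgeR adjusted p 1.08e-06). Bysl changed by -1.20 and Ltv1 by -0.43 at day 6. Rrp12 had the highest day 2 fold change of all 50 members, 37.5 ± 3.60 CPM against 27.0 ± 3.77 untreated (SD, n = 2), with 0.48 on the log2 scale (edgeR, adjusted p 0.0576). Rrp12 fell from there to 28.3 ± 3.82 at day 4 and 17.7 ± 0.280 at day 6, which was -0.61 against untreated (edgeR adjusted p 0.00293).

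Large subunit assembly had 18 of 19 members lower at day 6 (median -0.85) and 11 lower at day 4, and it held both the most and the least changed member. Gnl3 encodes nucleostemin, a nucleolar GTPase of proliferating and stem cells (Entrez Gene 30877, chr14:31012433-31019131). It read 42.7 and 74.0 CPM untreated, 40.7 and 50.5 at day 2, 25.2 and 23.4 at day 4 and 13.4 and 12.0 at day 6. The untreated libraries differed widely and overlapped those of day 2, and each later group lay below the one before. Gnl3 changed by -1.26 (SE 0.21) at day 4 and by -2.20 (SE 0.24) at day 6, with adjusted p of 0.000512 and 8.70e-06 from edgeR, and 21.8% of the untreated level was left. Rrs1, which helps to build the part of the large subunit that carries its smallest rRNA (Entrez Gene 59014, chr1:9545408-9547455), read 87.2 and 106 CPM untreated, 79.0 and 83.1 at day 2, 53.3 and 48.6 at day 4 and 27.9 and 29.3 at day 6. Here the 4 groups did not overlap, and the changes were -0.26 at day 2 (edgeR adjusted p 0.162), -0.93 (SE 0.10) at day 4 and -1.76 (SE 0.11, adjusted p 9.07e-08 by edgeR) at day 6.

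The PeBoW complex, which acts in large subunit rRNA processing, has 3 proteins, and 2 of them were lower at day 6. Wdr12 was lower at day 4 (-0.56) and day 6 (-0.89), Bop1 was lower at day 6 (-0.49) and not called at day 4 (-0.04), and Pes1 was called in no comparison. Pes1 (Entrez Gene 64934, chr11:3963975-3980004) read 66.0 and 67.8 CPM untreated, 71.4 and 63.5 at day 2, 65.0 and 60.5 at day 4 and 57.4 and 58.8 at day 6. Its day 6 libraries were the lowest, with a log2 fold change of -0.20 (SE 0.09, edgeR adjusted p 0.0553), and it was called with only the compared groups in the fit (-0.21) and with scaling by total counts (-0.64). Differences between these 3 genes in their change were not tested. Of the remaining large subunit members, Grwd1 (-1.59), a chaperone of a ribosomal protein, Noc3l (-1.39) and Nop16 (-1.33) had the most negative day 6 values after Gnl3 and Rrs1. The rRNA methyltransferases Ftsj3 and Nop2 changed by -1.15 and -1.13, the helicases Ddx18 and Ddx56 by -1.15 and -0.76, and Gnl2 by -0.85. Rrp1b (-0.60), Ebna1bp2 (-0.55), Wdr74 (-0.51), Noc2l (-0.49), Nip7 (-0.38) and Mrto4 (-0.34) were lower by less.

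The 4 nucleolar proteins outside these complexes were all lower at day 6, with a median of -0.67. Mybbp1a, a nucleolar protein that binds Myb and is linked to polymerase I transcription (Entrez Gene 18432, chr11:72441327-72451770), read 224 and 255 CPM untreated, 243 and 257 at day 2, 187 and 161 at day 4 and 112 in each library of day 6. Its log2 fold change was -0.46 (SE 0.09) at day 4 and -1.10 (SE 0.09, adjusted p 1.23e-06 by edgeR) at day 6. Ncl, nucleolin, which binds the nascent precursor (Entrez Gene 17975, chr1:86344719-86359455), read 797 and 876 CPM untreated, 769 and 861 at day 2, 673 and 649 at day 4 and 522 and 508 at day 6, with changes of -0.34 (SE 0.09) and -0.70 (SE 0.09, edgeR adjusted p 2.80e-05). In both genes the day 2 libraries overlapped the untreated ones and the day 6 libraries lay below all others. Npm1, nucleophosmin, a nucleolar chaperone often mutated in human acute myeloid leukaemia (Entrez Gene 18148, chr11:33152498-33164142), read 160 and 162 CPM untreated, 183 and 178 at day 2, 156 and 133 at day 4 and 116 and 105 at day 6. Its day 2 libraries were the highest and its day 6 libraries the lowest, and the log2 fold change was -0.15 at day 4, not called, and -0.54 (SE 0.09, adjusted p 0.000245 by edgeR) at day 6. Ddx21, a helicase that couples polymerase I transcription and processing, changed by -0.64 at day 6.

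Per length of transcript, the untreated members spanned 6.25 RPKM (Rrp12) to 101 RPKM (Ncl), with a median of 23.2. Npm1 (93.6), Nop10 (93.4), Nop58 (72.2), Nhp2 (67.9) and Imp3 (67.4) followed Ncl in untreated cells. The medians on days 2, 4 and 6 were 23.7, 18.4 and 13.1 RPKM. The day 6 median was the lowest of the 4 groups, and in all 50 members the day 6 mean was the lowest mean. The highest mean was that of untreated cells in 24 members and that of day 2 in 25. The means fell at every step in 24 members.

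Members also carried a feature that the list did not use. Introns or exons of 7 of the 50 overlap annotated snoRNA genes on the same strand (GENCODE M21), 21 snoRNAs in all, against 217 of 11619 protein-coding genes of the tables (1.87%). These hosts were Nop56 (5 snoRNAs), Nop58 (4), Wdr43, Gnl3 and Ncl (3 each), Tsr1 (2) and Dkc1 (1), and among the snoRNAs are Snord57 and Snord110 in Nop56 and Snord19 and Snord69 in Gnl3. All 7 hosts were lower at day 6, with a median log2 fold change of -1.38 and a range of -2.20 to -0.70. The snoRNAs themselves were not measured here.

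A few members share sequence with other genes. Over 20% of the 50-base words of the coding transcript also occur in other genes' transcripts in Fbl (70.4%), Ddx18 (62.7%), Npm1 (40.9%), Nop56 (37.6%), Mrto4 (25.3%) and Pes1 (20.99%), so their counts are less certain. The other 44 members were all lower at day 6, with a median of -0.87. That limit was chosen after the values were seen and leaves out both uncalled members, Fbl and Pes1. The count therefore cannot tell whether shared sequence matters. Exons of 11 members overlap an opposite-strand gene of the tables, among them Nop56 with Idh3b, Dkc1 with Mpp1, Gnl3 with Pbrm1 and Tsr1 with Srr, and the strand of counting is not given in the sources used here. Of the 39 members without such an overlap, 37 were lower at day 6.

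The other genes of the pathway, 133 tested genes in 5 lists, were mostly lower at day 6 as well. There edgeR called 78 lower (58.6%) and 9 higher, against 31.6% and 32% of all genes, with a median log2 fold change of -0.37. At day 4, 41 were lower (30.8%) and 11 higher, against 22% and 26.1% of all genes. By list, the share lower at day 6 ran from 47.1% (polymerase I machinery) to 67.4% (further large subunit factors). Polymerase I machinery had 8 lower and 1 higher of 17, with the shared polymerase subunits Polr2f (-0.91) and Polr2h (-0.80) lower and Taf1b, a subunit of the promoter selectivity factor, higher (0.81). Taf1b went from 31.5 ± 1.36 CPM untreated to 55.4 ± 4.03 at day 6 (SD, n = 2). The snoRNP assembly list had 8 lower and 2 higher of 13. Naf1, an assembly factor of box H/ACA particles (-1.40), and the helicase Ruvbl1 (-1.06) were lower. Pih1d1 (0.55) and Nop53 (0.29) were higher, and the list was drawn broadly, as Nop53 is not itself a snoRNP assembly factor. Further small subunit factors had 23 lower and 4 higher of 43. Rcl1 (-1.87) and the rRNA acetyltransferase Nat10 (-1.85) were lower, and the kinase Riok3 (1.05), Utp3 (0.53), Utp23 (0.53) and the helicase Ddx52 (0.47) were higher. Riok3 read 131 and 126 CPM untreated and 263 and 268 at day 6. Further large subunit factors had 31 lower and 1 higher of 46, led by Nle1 (-1.41) and Urb2 (-1.38), with Zfp622 higher (0.25). The list of the RNA exosome and its cofactors had 8 lower and 1 higher of 14, with the subunits Exosc2 (-1.10) and Exosc8 (-0.98) lower. The higher gene was Xrn2 (0.83), a nuclease that is not part of the exosome. With libraries scaled by total counts, 6647 of all genes were lower and 2078 higher. Of the 133, 113 were then lower and 3 higher, with a median of -0.80. The 3 were Riok3 (0.61), Xrn2 (0.39) and Taf1b (0.38), and the calls of Pih1d1 (0.12), Utp3 (0.10), Utp23 (0.09) and Ddx52 (0.04) were lost, while Nop53 (-0.15) and Zfp622 (-0.19) turned sign and were not called.

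**Figure D4:**
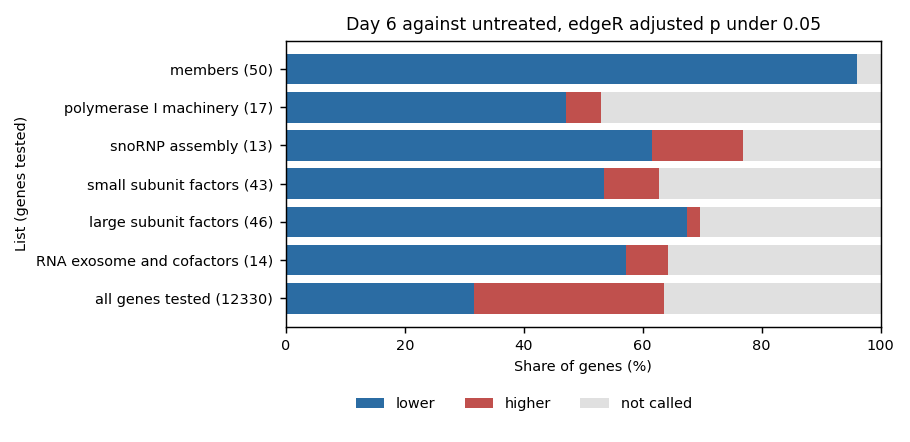
Bars give the share of each gene list, in percent, that was lower, higher or not called at day 6 against untreated (edgeR adjusted p under 0.05), with the number of genes tested in brackets. The nucleolar factors have 48 of 50 lower and none higher, and over all 12330 genes 31.6% were lower and 32% higher.

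Myc, the transcription factor known to drive this gene group, read 110 and 230 CPM untreated, 121 and 129 at day 2, 120 and 64.4 at day 4 and 43.7 and 40.2 at day 6. The untreated libraries differed widely and their range held the day 2 libraries, and the day 6 libraries lay below all others. Myc changed by -0.88 on the log2 scale at day 4 (SE 0.30, adjusted p 0.0331) and by -2.02 at day 6 (SE 0.33, adjusted p 0.000240), both with edgeR. Mxd1, an antagonist of Myc, went from 40.8 ± 3.01 CPM untreated to 240 ± 34.0 at day 6 (SD, n = 2), a log2 fold change of 2.56. Mxd3 (1.05), Max (0.67) and Mxi1 (0.55) were also higher at day 6, Mlx, Mxd4 and Mga were lower, and Mnt and Mlxip were not called. With scaling by total counts Mxd1 (2.12) and Mxd3 (0.62) were still higher, Max (0.24) and Mxi1 (0.12) were not called, and Mnt (-0.35) and Mlxip (-0.42) were called lower. Mycl had at most 8 counts in any library and was removed by the filter, and Mycn is not in the tables. In the untreated pair, 44 of the 50 members were higher in replicate 2, which also had the higher Myc level, against 46.7% of all genes. In the day 4 pair 42 were higher in replicate 1, again the library with more Myc, against 50.6% of all genes. At day 2, 32 were higher in replicate 2 (51.9% of all genes) and at day 6, 28 in replicate 1 (46.7%), splits nearer to even. With 1 pair per group this is a description of the libraries and no test.

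**Figure D5:**
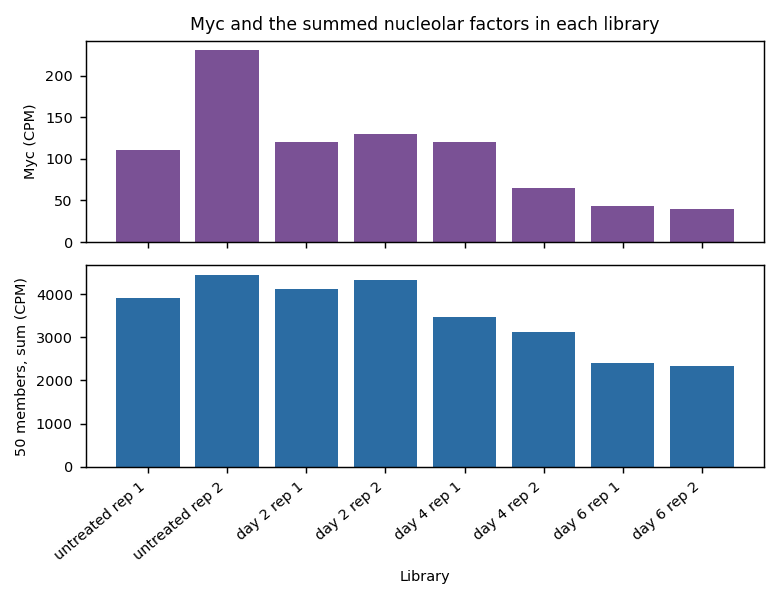
The upper panel shows the CPM of Myc and the lower panel the summed CPM of the 50 nucleolar factors, with a bar for each library. Untreated replicate 2 is the highest in both panels (230 and 4441 CPM), and the day 6 libraries are the lowest in both (43.7 and 40.2, and 2394 and 2344 CPM).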

How the data were processed

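Per the file headers, each deposited table holds whole-number counts of reads per Entrez gene ID and a gene length for 1 library, and the counts were not normalised by the authors. The build mm10 and the tools featureCounts, CASAVA 1.8.2, limma 3.22.0 and edgeR 3.8.2 come from the submitters' processing notes. Strandedness was, like the aligner, not given in the sources used here. Genes of low expression are not in the tables, since for every gene listed the third highest of 8 CPM values is at least 0.501. RefSeq symbols were found for 12555 of the 12830 IDs, and the other 275 hold 2.24% of counts.

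All 8 libraries entered 1 fit in R 4.3.3 with edgeR 4.0.16 (filterByExpr, TMM, glmQLFit and glmQLFTest on group means), with adjustment over the 12330 genes tested and a threshold of 0.05. The filter removed 500 genes with 0.0267% of counts. With 4 residual and 7.08 prior degrees of freedom, the biological coefficient of variation came to 8.34%. CPM are TMM-scaled, and RPKM divide them by the deposited length. The SE of an edgeR fold change was worked back from the test, as the absolute log2 fold change over the square root of F. The lowest count of a member in any library was 68, so counting error adds to the spread of the lowest members. DESeq2 1.42.0, limma-voom (limma 3.58.1), other scalings, no filter, a replicate block and leaving out each library were alternatives. The scripts were tested on simulated data.

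The members, lists and alternatives were chosen with earlier results of these data known. Values in every library are given for 10 members named by role, for the 2 called members of each role with the largest absolute fold change at day 6, and for members called in no comparison. Of each pathway list, the text names the 2 such genes and those called in the direction that fewer took. Replicate numbers did not pair libraries: correlations of the replicate differences between groups were -0.12 to 0.21. No replicate pair agreed within sampling noise.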

Additional observations from a re-analysis of the deposited data

How the results depend on the processing

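The count of members lower at day 6 was 48 with TMM and edgeR and lay between 42 and 50 over 15 settings, with 45 by DESeq2, 47 with DESeq2's size factors, 48 by limma-voom and 50 with scaling by total counts. The calls of Heatr1, Imp4, Mrto4, Nip7, Noc4l, Rrp1b and Wdr74 were lost in some setting, and 41 of the 48 held in all. Leaving out 1 library at a time gave 0 to 2 members lower and 0 to 1 higher at day 2, 16 to 32 lower at day 4, 12 to 35 lower from day 2 to day 4 and 19 to 39 lower from day 4 to day 6. The cause was not tested, beyond the fewer libraries in those fits, where a lone library is assumed to vary like the other groups. With the replicate block, 29 members were lower at day 4, 48 at day 6, 33 from day 2 to day 4 and 38 from day 4 to day 6, so it moved no count by over 1.5 times. Of 4450 single-member values under other settings, 203 lost their call, 41 gained one and 0 were reversed. Reversed means a turned sign in a value called in the main fit or under the other setting. A turned sign in a value called in neither was not counted. Scaling by total counts shifted the all-gene median to -0.17 at day 2, -0.27 at day 4 and -0.47 at day 6. With it, all-gene calls were 658 lower and 170 higher at day 2 (240 and 516 with TMM), 4519 and 1816 at day 4 (2707 and 3217) and 2646 and 881 from day 4 to day 6 (1728 and 1961). With only the groups compared in the fit, 57 genes were lower and 175 higher at day 2, and DESeq2 called 1089 lower from day 4 to day 6.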
